A study of Mus musculus with 18 samples.

Results

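The genes described here are those of cholesterol synthesis, uptake and efflux: enzymes of the sterol pathway, the SREBP proteins and the regulators that switch the pathway on and off, and genes for moving, exporting and esterifying sterols. They were given as a list of 28 symbols chosen by function, and every row of the deposited expression table that carries a listed symbol was taken. All 28 were found among the 22708 genes of the table. By role, 10 members lead from acetyl-CoA through mevalonate to lanosterol and 7 from lanosterol to cholesterol. A further 5 belong to SREBP control and 6 to sterol transport, uptake control, efflux and ester turnover.

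As background, cells make cholesterol from acetyl-CoA in the endoplasmic reticulum, and they balance this synthesis against the uptake of lipoproteins and the export of surplus sterol. When membrane sterol is low, SCAP escorts the SREBP transcription factors to the Golgi, where they are cut and released to the nucleus to raise synthesis and uptake genes; when sterol is plentiful, INSIG proteins hold SCAP back, while oxysterols act through LXR on export genes such as Abca1. AHR, the aryl hydrocarbon receptor, is a ligand-activated transcription factor that binds DNA together with ARNT, and its target Ahrr encodes a repressor of AHR.

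Eosinophils, granulocytes that live in large numbers in the gut wall, were sorted from mouse small intestine as CD11b+MHC-II-SiglecF+SSChi cells, and their RNA was isolated directly after the sort and sequenced in bulk. The 18 samples fell into 3 genotypes of strain C57/BL6, labelled wildtype (WT), Ahr knockout and Ahrr knockout, with 6 samples each, of which 3 came from females (F1 to F3) and 3 from males (M1 to M3). The labels name no treatment and no age. The methods give a range of ages in weeks for the mice of the study, which were matched for age within experiments. They also state that Ahr knockout mice and their WT controls were neither littermates nor cohoused, so that genotype cannot be told apart from cage or breeding line. Which part of Ahr or Ahrr was deleted is not stated in the sources used. The deposited table gives log2-scale values that the authors had variance-stabilized. A count of 0 is 5.02 on this scale, which compresses the differences of genes with few counts. Turned back to counts, the libraries held 3842977 to 8149200 counts in WT (median 6022410), 6581818 to 10284124 in Ahr knockout (median 9647590) and 8788867 to 12046933 in Ahrr knockout (median 10371556). Genotypes were compared for 12 samples at a time with limma, a linear model fitted to every gene, with sex as a covariate, and a gene was called at a Benjamini-Hochberg adjusted p under 0.05 over all genes tested.

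The genes named in the genotypes were looked at before the sterol genes. Ahr RNA was not lower in the Ahr knockout samples: it lay at 13.40, 13.76 and 14.40 in WT (lowest, median and highest of 6 samples) and at 14.15, 14.55 and 14.67 in Ahr knockout. These groups overlapped, and the difference of 0.61 (SE 0.19) had an adjusted p of 0.0557. Ahrr, the target of AHR, lay at 9.79, 10.12 and 10.39 in WT and at 5.02, 5.25 and 5.79 in Ahr knockout. No Ahr knockout sample reached a WT sample, and Ahrr fell by 4.83 (SE 0.14, adjusted p 4.95e-12). Ahrr passed the filter on low values through WT (mean 10.11, and 5.28 in Ahr knockout). Its raw counts in Ahr knockout ran from 0 to 10, so the size of this fall is unsure. In the samples labelled Ahrr knockout, Ahrr RNA was not lower than in WT, at 9.95, 10.37 and 10.93 (difference 0.28, SE 0.18, adjusted p 0.683). The table therefore shows no loss of Ahrr RNA in that group, which is called by its label here. The sexes matched their labels: Xist lay between 14.44 and 15.00 in the 9 females and between 5.94 and 6.66 in the 9 males.

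Of 7 eosinophil markers, 5 were expressed above the filter on low values. In WT, Siglecf, a surface lectin used in the sort, lay between 10.72 and 11.21, and Ccr3, the eotaxin receptor, between 13.14 and 13.88. Il5ra, the interleukin receptor chain that sustains eosinophils, lay between 10.45 and 11.40 and the lipoxygenase Alox15 between 13.66 and 14.28. The granule protein genes were low: Epx stayed between 5.53 and 5.97 and Ear2 between 5.02 and 5.86 in WT, near the value of a count of 0. Prg2, another granule gene, lay between 6.69 and 7.61 in WT and between 8.60 and 9.95 in Ahr knockout.

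A pair of libraries stood apart. WT F3 had 2464 genes at a count of 0 and Ahr knockout F3 had 3014, whereas every other sample had 5472 to 7562, and WT F3 was also the shallowest library. For the 28 sterol genes, results are given with and without both of these samples where their removal changed a call. Calls in the marker lists and in the lists of neighbouring pathways were not refitted without them or under any other setting.

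Genes commonly used as markers of other intestinal cell types were detected, and some differed between genotypes; whether their RNA came from other cells or from eosinophils was not tested. Between Ahr knockout and WT, 8.84% of all genes were called, 5.16% higher and 3.68% lower, and 23.3% had an unadjusted p under 0.05, which is the background for the counts that follow. The goblet list, 6 genes of mucus-secreting epithelium led by Muc2, summed to 6379, 9143 and 17422 normalized counts in WT (lowest, median, highest) and to 4176, 4709 and 5947 in Ahr knockout, and 5 of its 6 genes were lower in Ahr knockout (Muc2, Tff3, Clca1, Spink4 and Agr2), with 6 of 6 at the unadjusted level. In Ahrr knockout the goblet sum spread from 3632 to 38687 around a median of 16873. The eosinophil sum, led by Alox15, was 24865, 35003 and 38207 in WT, 38499, 44592 and 49550 in Ahr knockout and 14318, 32025 and 38762 in Ahrr knockout. Every Ahr knockout sample was above every WT sample in the summed eosinophil list and below every WT sample in the summed goblet list. Gene by gene, 2 of 5 tested eosinophil markers were called higher, Prg2 and Alox15, and 4 of 5 had an unadjusted p under 0.05. Siglecf was not called (adjusted p 0.0529), although every Ahr knockout sample (11.21 to 11.63) was above WT, the nearest by less than the rounding. Ccr3 (13.43 to 13.90 in Ahr knockout) and Il5ra (10.97 to 11.68) overlapped WT and were not called.

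Among the other lists compared between Ahr knockout and WT, 1 of 3 tested acinar genes was lower (Ctrb1, with a median list sum of 774 in WT and 5.29 in Ahr knockout), as were 1 of 2 endothelial genes (Pecam1) and 1 of 5 genes of dividing cells (Top2a), with 3, 1 and 4 at an unadjusted p under 0.05. Ctrb1 passed the filter through its WT samples (6.10 to 10.78, with a mean of 5.76 in Ahr knockout), so its call is weak. Of 9 tested macrophage and dendritic genes, 2 were higher (Itgax and Csf1r) and 1 was lower (Cd68), with 3 at the unadjusted level. None of the 9 enterocyte, 5 Paneth, 2 B and plasma, 4 neutrophil, 1 mast and 2 fibroblast genes tested passed, with 2, 1, 1, 0, 0 and 0 of them at an unadjusted p under 0.05 in limma. The T and innate lymphoid genes were all below the filter, with a median sum of 20.9 in WT. No marker found in the table was at 0 in every sample, although the gate selects against MHC-II and for SiglecF. In bulk RNA, neither the cell that a transcript came from nor a change in cell number against one in RNA per cell can be told, and the part of these shifts in the sterol results was not tested.

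**Figure D1:**
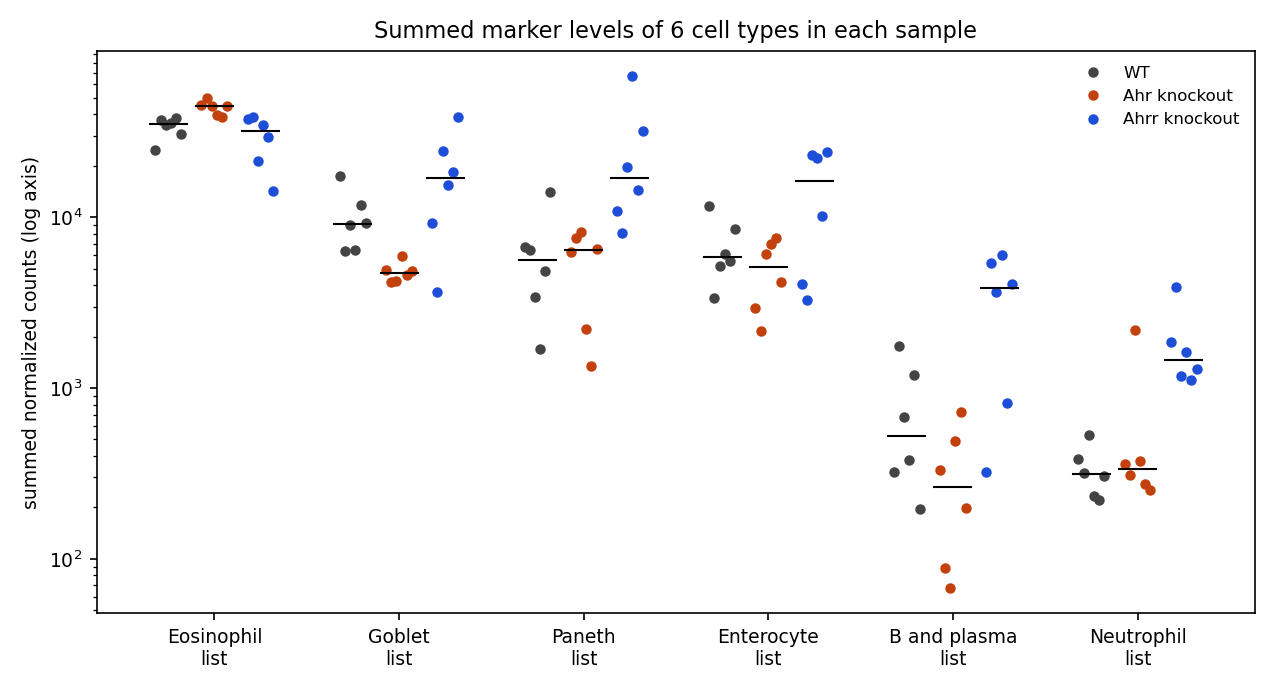
Summed normalized counts (log axis) of 6 marker lists in each of the 18 samples, with a horizontal bar at the median of each genotype. The sums of Ahr knockout samples lie above WT for the eosinophil list and below WT for the goblet list, and the Ahrr knockout samples spread widely for the epithelial lists.

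The sterol genes were first ranked by level within WT, as normalized counts per kb of exon to allow for gene length. The length was that of all annotated exons of a gene together, from 1713 bases for Pmvk to 10787 for Lss. It can exceed that of any single transcript, so the order is not strictly one of RNA abundance. The median over 19374 genes with a length and a count was 9.95 per kb, and 26 of the 28 members lay above it. The highest was Sc5d, which puts in a late double bond of the sterol ring, at 252 ± 33.4 counts per kb (mean ± SD, n = 6). Next came Pmvk, a kinase of the mevalonate chain, at 236 ± 83.5, and Srebf2, which encodes the SREBP that favours cholesterol genes, at 212 ± 36.4. These 3 did not differ beyond their spread. Stard4, a carrier of cholesterol between membranes, followed at 173 ± 26.5. Hmgcs1, the HMG-CoA synthase at the head of the mevalonate chain, stood at 159 ± 22.3 and Idi1, the isomerase of its isoprenoid units, at 152 ± 28.4.

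The middle of the order held Msmo1, which oxidizes the methyl groups of lanosterol's products, at 146 ± 36.7 counts per kb and Insig1, which retains SCAP, at 137 ± 36.9. Fdft1, the squalene synthase, stood at 105 ± 33.9. Scap itself was at 65.3 ± 5.80, the member with the smallest SD on the log2 scale in WT. At the low end, the exporter gene Abca1 was at 11.5 ± 4.50 and the sterol reductase gene Tm7sf2 at 8.25 ± 3.15. Fdps, the farnesyl diphosphate synthase, had 3.28 ± 1.54 counts per kb, and its raw counts in WT ran from 3 to 20. Enzymes of the same chain thus differed in counts per kb: Pmvk and Fdps act a few steps apart, and their levels per kb did not overlap. Part of the Fdps exons is shared with another gene, as given below. How far the gap is one of RNA level was not tested.

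The remaining members lay in between. In the chain to lanosterol, counts per kb in WT were 79.6 ± 13.7 for Sqle, the epoxidase of squalene, and 61.7 ± 11.2 for Mvd, the mevalonate decarboxylase. Acat2, an acetyl-CoA thiolase, had 28.1 ± 11.4, Lss, which closes the rings to lanosterol, 19.7 ± 2.12 and Mvk, the mevalonate kinase, 16.6 ± 7.67. Past lanosterol, the dehydrogenase gene Nsdhl had 70.5 ± 17.2, the isomerase gene Ebp 57.0 ± 11.8, the reductase gene Hsd17b7 38.6 ± 13.9 and Dhcr7, the reductase of the last step, 23.5 ± 6.53. Of the regulators, Insig2 was at 43.4 ± 10.8 and Srebf1 at 35.5 ± 5.98. Soat1, which esterifies cholesterol, stood at 69.8 ± 11.9, the exporter gene Abcg1 at 45.6 ± 13.6, Mylip, whose product marks lipoprotein receptors for degradation, at 43.7 ± 8.93, and Nceh1, an ester hydrolase, at 32.9 ± 7.19.

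Some of these levels are uncertain because exons overlap another gene. On the same strand, the overlap took 26.7% of the exon bases of Fdps (Gm43738) and 12.1% of Tm7sf2 (Vps51), which no counting by strand would separate. On the opposite strand it took 18.3% of Fdft1 (Ctsb), 13.2% of Scap (5830462I19Rik), 12.1% of Hmgcs1 (Gm48342) and 9.2% of Idi1 (Gm48574), and the sources used do not say whether reads were counted by strand.

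**Figure D2:**
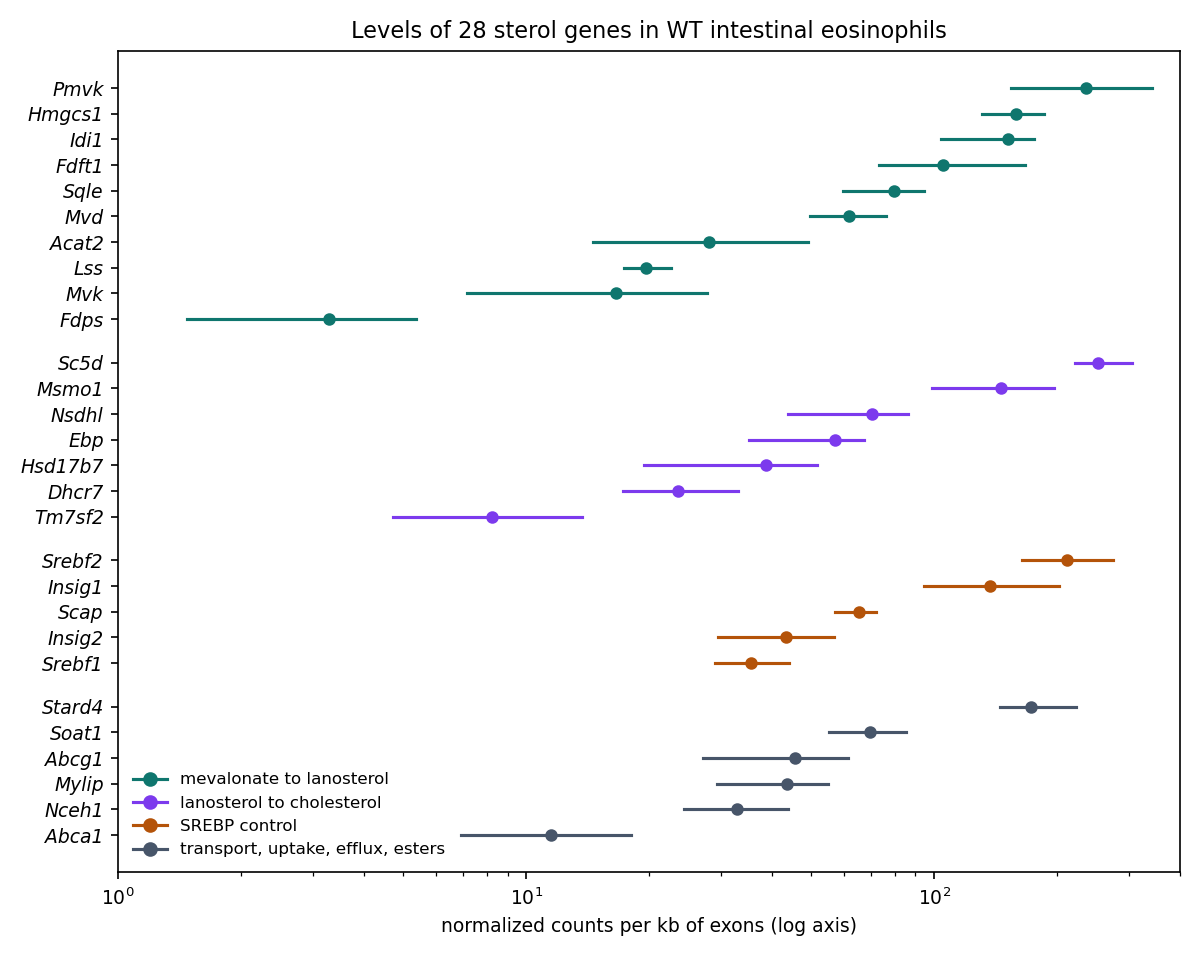
Normalized counts per kb of exon (log axis) of the 28 sterol genes in WT eosinophils, grouped by role, with the mean as a point and a line from the lowest to the highest of 6 samples. Sc5d, Pmvk and Srebf2 are at the top and Fdps is at the bottom.

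The proximal promoters show where the DNA letters linked to these regulators lie. RefSeq promoters of 300 bases, from 250 before to 50 after the gene start, were matched for 23 of the 28 members; Fdps, Fdft1, Sqle, Stard4 and Abcg1 had no entry. Those of Hmgcs1, a standard SREBP target, and of Srebf2, Scap and Msmo1, the members called between Ahr knockout and WT, are printed 5′ to 3′ on the gene's strand (GRCm38.p6). Hmgcs1 is on the plus strand at chr13:119690101-119690400, Srebf2 on the plus strand at chr15:82147019-82147318, Scap on the plus strand at chr9:110333038-110333337 (1 of its 2 promoters in the table) and Msmo1 on the minus strand at chr8:64733529-64733828. Capitals mark matches, on either strand, to the sterol regulatory element TCACNCCAC, the AHR core motif GCGTG and the CCAAT box.
Hmgcs1: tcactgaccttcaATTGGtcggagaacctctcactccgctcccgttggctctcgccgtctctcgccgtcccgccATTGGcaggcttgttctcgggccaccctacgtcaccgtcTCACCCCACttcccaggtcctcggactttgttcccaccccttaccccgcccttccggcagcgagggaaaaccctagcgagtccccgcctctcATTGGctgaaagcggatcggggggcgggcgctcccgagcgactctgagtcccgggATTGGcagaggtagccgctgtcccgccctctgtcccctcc
Srebf2: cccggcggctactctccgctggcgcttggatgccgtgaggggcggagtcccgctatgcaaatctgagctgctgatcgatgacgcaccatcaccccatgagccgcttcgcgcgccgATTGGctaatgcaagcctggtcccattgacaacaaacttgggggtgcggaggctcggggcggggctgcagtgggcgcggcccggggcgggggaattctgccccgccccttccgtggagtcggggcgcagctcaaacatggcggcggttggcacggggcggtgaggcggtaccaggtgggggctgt
Scap: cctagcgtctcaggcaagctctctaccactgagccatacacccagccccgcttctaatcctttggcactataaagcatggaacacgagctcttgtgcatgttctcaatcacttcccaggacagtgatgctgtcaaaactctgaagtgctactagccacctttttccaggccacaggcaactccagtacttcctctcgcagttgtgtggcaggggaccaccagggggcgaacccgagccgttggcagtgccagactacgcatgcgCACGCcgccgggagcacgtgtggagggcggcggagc
Msmo1: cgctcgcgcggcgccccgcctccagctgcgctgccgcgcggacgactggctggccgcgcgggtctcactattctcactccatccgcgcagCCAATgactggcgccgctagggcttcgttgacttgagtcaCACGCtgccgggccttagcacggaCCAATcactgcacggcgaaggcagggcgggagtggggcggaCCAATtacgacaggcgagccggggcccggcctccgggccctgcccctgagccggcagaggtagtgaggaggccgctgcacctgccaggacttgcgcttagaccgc

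The sterol regulatory element was found in 1 of the 23 members, Hmgcs1, with its first base at -137 from the start, and in 1.44% of the 27025 genes with a promoter, counting a gene if any of its promoters matched. The AHR core was found in 14 of 23 members, among them Msmo1 at -120 and Scap at 15, against 35.2% of all these genes. The CCAAT box was in 20 of 23 members against 41.1% of all these genes. These shares are over genes expressed here or not, and base composition was not matched. Whether the members differ from promoters like theirs was not tested. Hmgcs1 held it at -237, -176, -45 and 11, Msmo1 at -160, -96 and -55, and Srebf2 at -135. A sterol element with G as its N holds the AHR core on the other strand, so these motifs can overlap. A match is a description of letters and not a bound site, and no match says only that these letters are not in this window.

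The comparison of Ahr knockout with WT asks what the sterol genes do in eosinophils of mice labelled as lacking Ahr. Of the 5 genes of SREBP control, 2 were higher in Ahr knockout, Scap, the escort of SREBP, by 0.51 and Srebf2 by 0.45 on the log2 scale. The enzyme gene Msmo1 was lower, by -0.52. These were the 3 members called among 27 tested. Over all 11346 genes tested, 8.84% were called, 5.16% higher and 3.68% lower, so 2 members higher and 1 lower of 27 is close to the background share. That background moved as well: 1003 genes were called here, 623 to 1124 with a sample left out and 553 to 1069 in the other settings tried. A further 4 members had an unadjusted p under 0.05, which makes 7 of 27, against 23.3% of all genes. The median difference of the members was 0.06 and that of all genes 0.00, with 18 members positive and 9 negative. Fdps was below the filter on low values in this comparison and was not tested.

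In Scap the samples separated. Its values in WT were 8.93, 9.12 and 9.23 (lowest, median and highest of 6), and in Ahr knockout 9.32, 9.67 and 9.81. Every Ahr knockout sample was above every WT sample, with the Ahr knockout females between 9.66 and 9.81 and the males between 9.32 and 9.67. Scap rose by 0.51 (SE 0.10, 95% interval 0.30 to 0.73, adjusted p 0.00432). It was the only member of 27 whose genotypes did not overlap, against 4.51% of all genes. The call held without WT F3 and Ahr knockout F3 (0.47, adjusted p 0.0309) and in every other setting tried, with adjusted p between 0.00316 and 0.0309. The exons of Scap that overlap 5830462I19Rik on the opposite strand limit how far this can be read as Scap RNA alone.

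Srebf2 lay at 10.28, 10.62 and 10.99 in WT and at 10.72, 11.10 and 11.40 in Ahr knockout. All 6 Ahr knockout samples were above the WT median, and the 3 females, between 11.35 and 11.40, were above every WT sample, whereas the 3 males, between 10.72 and 10.86, overlapped WT. Srebf2 rose by 0.45 (SE 0.11, 95% interval 0.21 to 0.69, adjusted p 0.0194). The call was lost without WT F3 (0.42, adjusted p 0.0521), without Ahr knockout F1 (0.44, adjusted p 0.0536) and without both libraries with few genes at 0 (0.40, adjusted p 0.0954). It was also lost with no sex covariate (adjusted p 0.0811) and with all 18 samples in the fit (adjusted p 0.0907), in a range from 0.00942 to 0.0954 over the settings tried. The other regulators were not called: Srebf1 ranged from 7.80 to 8.27 in WT and from 8.06 to 8.54 in Ahr knockout, Insig1 from 8.47 to 9.43 and from 8.35 to 9.48, and Insig2 averaged 7.70 ± 0.27 and 7.65 ± 0.23 (mean ± SD, n = 6). The median difference of the 5 regulators was 0.28, in a range from -0.04 to 0.51.

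**Figure D3:**
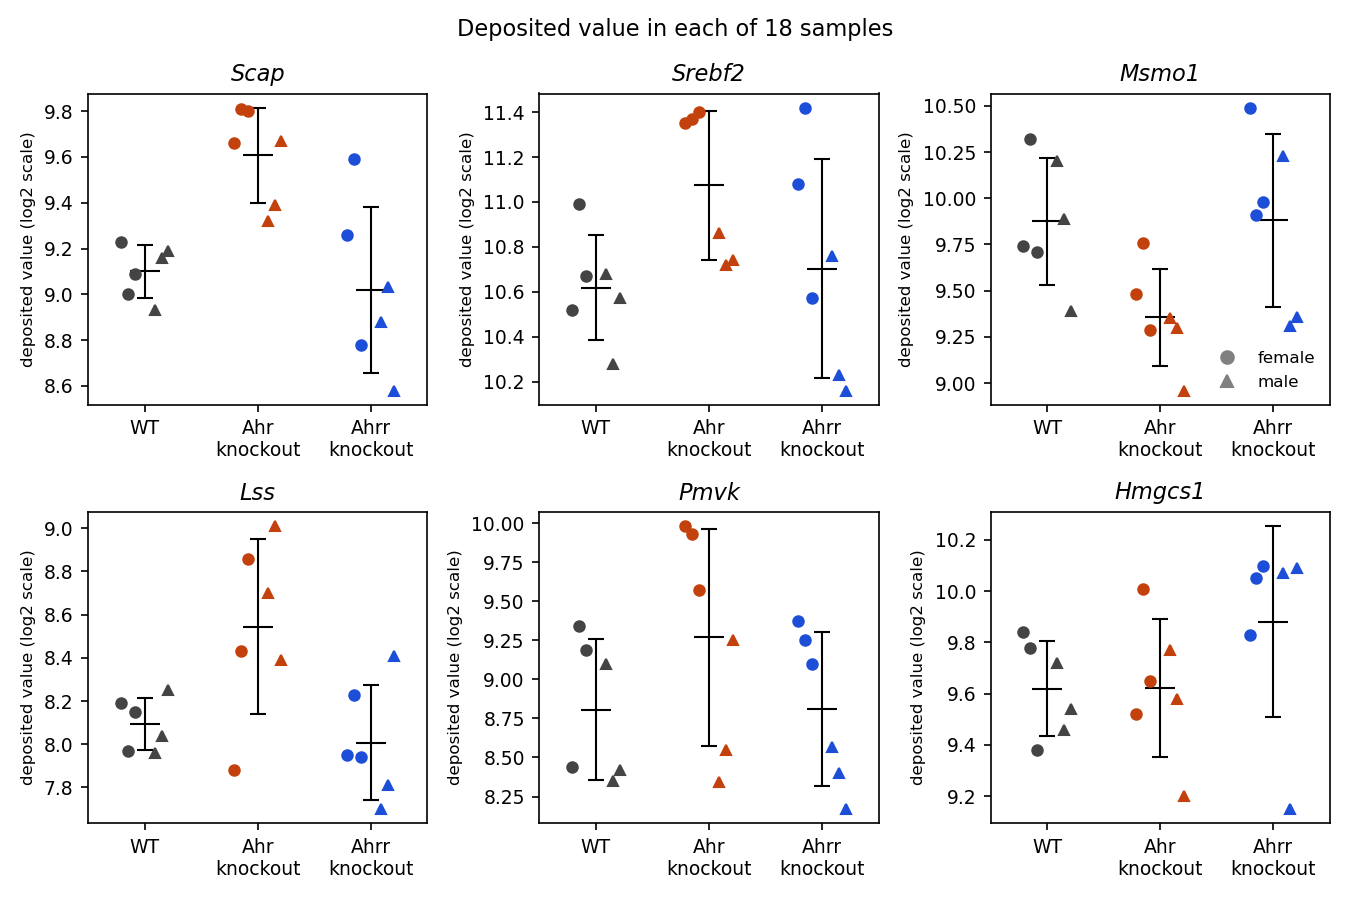
Deposited log2-scale value of Scap, Srebf2, Msmo1, Lss, Pmvk and Hmgcs1 in each of the 18 samples, females as circles and males as triangles, with the mean of 6 samples and bars of 1 SD. Scap is the gene here whose Ahr knockout samples all lie above WT, and in both knockouts the Pmvk females all lie above the males.

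In the chain from mevalonate to lanosterol, 0 of 9 tested enzymes were called by limma, with 3 at an unadjusted p under 0.05, against 8.84% and 23.3% of all genes. The median difference was 0.09, from 0.00 to 0.46, and 8 of 9 differences were positive. Hmgcs1 lay at 9.38, 9.63 and 9.84 in WT and at 9.20, 9.62 and 10.01 in Ahr knockout. The WT range sat inside that of Ahr knockout, and the 95% interval of the difference ran from -0.27 to 0.27 around 0.00 (adjusted p 0.998). Pmvk, the most abundant member of this role per kb, lay at 8.35, 8.77 and 9.34 in WT and at 8.34, 9.41 and 9.98 in Ahr knockout, and its high Ahr knockout samples were the 3 females. Its difference was 0.46 (SE 0.21, adjusted p 0.198), and it depended on single libraries, at 0.30 without WT F1 (adjusted p 0.362) and 0.61 without WT M1 (adjusted p 0.0582).

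Lss, the cyclase, lay at 7.96, 8.09 and 8.25 in WT and at 7.88, 8.56 and 9.01 in Ahr knockout. A lone Ahr knockout sample, F1, was below WT and the other 5 were above every WT sample. The difference of 0.45 (SE 0.16) was not called at an adjusted p of 0.0856, and without Ahr knockout F1 it was 0.58 with an adjusted p of 0.0159, the lowest in a range up to 0.218. The others overlapped between these genotypes. Idi1 ranged from 8.73 to 9.41 in WT and from 8.59 to 9.61 in Ahr knockout, Fdft1 from 8.54 to 9.59 and from 8.44 to 9.78, and Sqle from 8.62 to 9.20 and from 8.60 to 9.51. Those with fewer counts also overlapped: Mvd ranged from 7.23 to 7.65 and from 7.46 to 7.93, Acat2 from 6.50 to 7.52 and from 6.64 to 7.23, Mvk from 6.10 to 7.04 and from 6.41 to 6.92, and the untested Fdps from 5.65 to 6.19 and from 5.71 to 6.47. Mvd was not called in limma (adjusted p 0.143, unadjusted p 0.0252), although all its Ahr knockout samples but F1 were above every WT sample.

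Past lanosterol, 1 of 7 enzymes was called, against 8.84% of all genes, and the median difference was 0.03, from -0.52 to 0.14. Msmo1 lay at 9.39, 9.82 and 10.32 in WT and at 8.96, 9.32 and 9.76 in Ahr knockout. The genotypes overlapped, with 5 of 6 Ahr knockout samples under every WT sample but M3. Msmo1 fell by 0.52 (SE 0.15, 95% interval -0.84 to -0.20, adjusted p 0.0420). This call sat near the threshold. Leaving out a WT library ended it for F2 (-0.44, adjusted p 0.0759), M1 (-0.42, adjusted p 0.0773) and M2 (-0.49, adjusted p 0.0798). Leaving out an Ahr knockout library ended it for F1 (-0.52, adjusted p 0.0838), F3 (-0.48, adjusted p 0.0913), M1 (-0.54, adjusted p 0.0606), M2 (-0.53, adjusted p 0.0656) and M3 (-0.45, adjusted p 0.108).

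The Msmo1 call was also lost without both libraries with few genes at 0 (adjusted p 0.0849), with no minimum mean (0.141), with samples centred on the median (0.0663), with no variance trend (0.0525), with no sex covariate (0.0556) and with all 18 samples in the fit (0.116). Over all settings the adjusted p ran from 0.00783 to 0.141 and the difference stayed negative. Sc5d, the most abundant member per kb in WT, lay at 10.16, 10.29 and 10.60 in WT and at 10.11, 10.25 and 10.63 in Ahr knockout, which overlapped throughout (difference -0.01, SE 0.11, adjusted p 0.964, and 0.01 with samples centred on the median). The other members of this role overlapped as well. Nsdhl ranged from 7.53 to 8.26 in WT and from 7.83 to 8.28 in Ahr knockout, Hsd17b7 from 7.30 to 8.35 and from 7.78 to 8.48, and Ebp from 7.11 to 7.75 and from 7.18 to 7.67. For the reductases, Dhcr7 ranged from 7.31 to 7.98 and from 7.29 to 7.99, and Tm7sf2 from 6.15 to 6.86 and from 6.13 to 6.83.

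Of the 6 genes of transport, uptake control, efflux and esters, 0 were called in limma and 0 had an unadjusted p under 0.05, against 8.84% and 23.3% of all genes. Their median difference was -0.09, from -0.20 to 0.13. Stard4, the most abundant of them, lay at 9.77, 9.96 and 10.35 in WT and at 9.60, 9.90 and 10.17 in Ahr knockout, overlapping, with a difference of -0.13 (SE 0.10, adjusted p 0.489). The exporters also overlapped: Abca1 ranged from 7.00 to 7.95 in WT and from 6.81 to 7.69 in Ahr knockout, and Abcg1 averaged 8.58 ± 0.39 and 8.52 ± 0.42 (mean ± SD, n = 6). In uptake control and ester turnover, Mylip ranged from 7.26 to 7.90 and from 6.87 to 7.86, Nceh1 from 7.55 to 8.19 and from 7.70 to 8.42, and Soat1 from 9.24 to 9.81 and from 9.33 to 9.85.

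**Figure D4:**
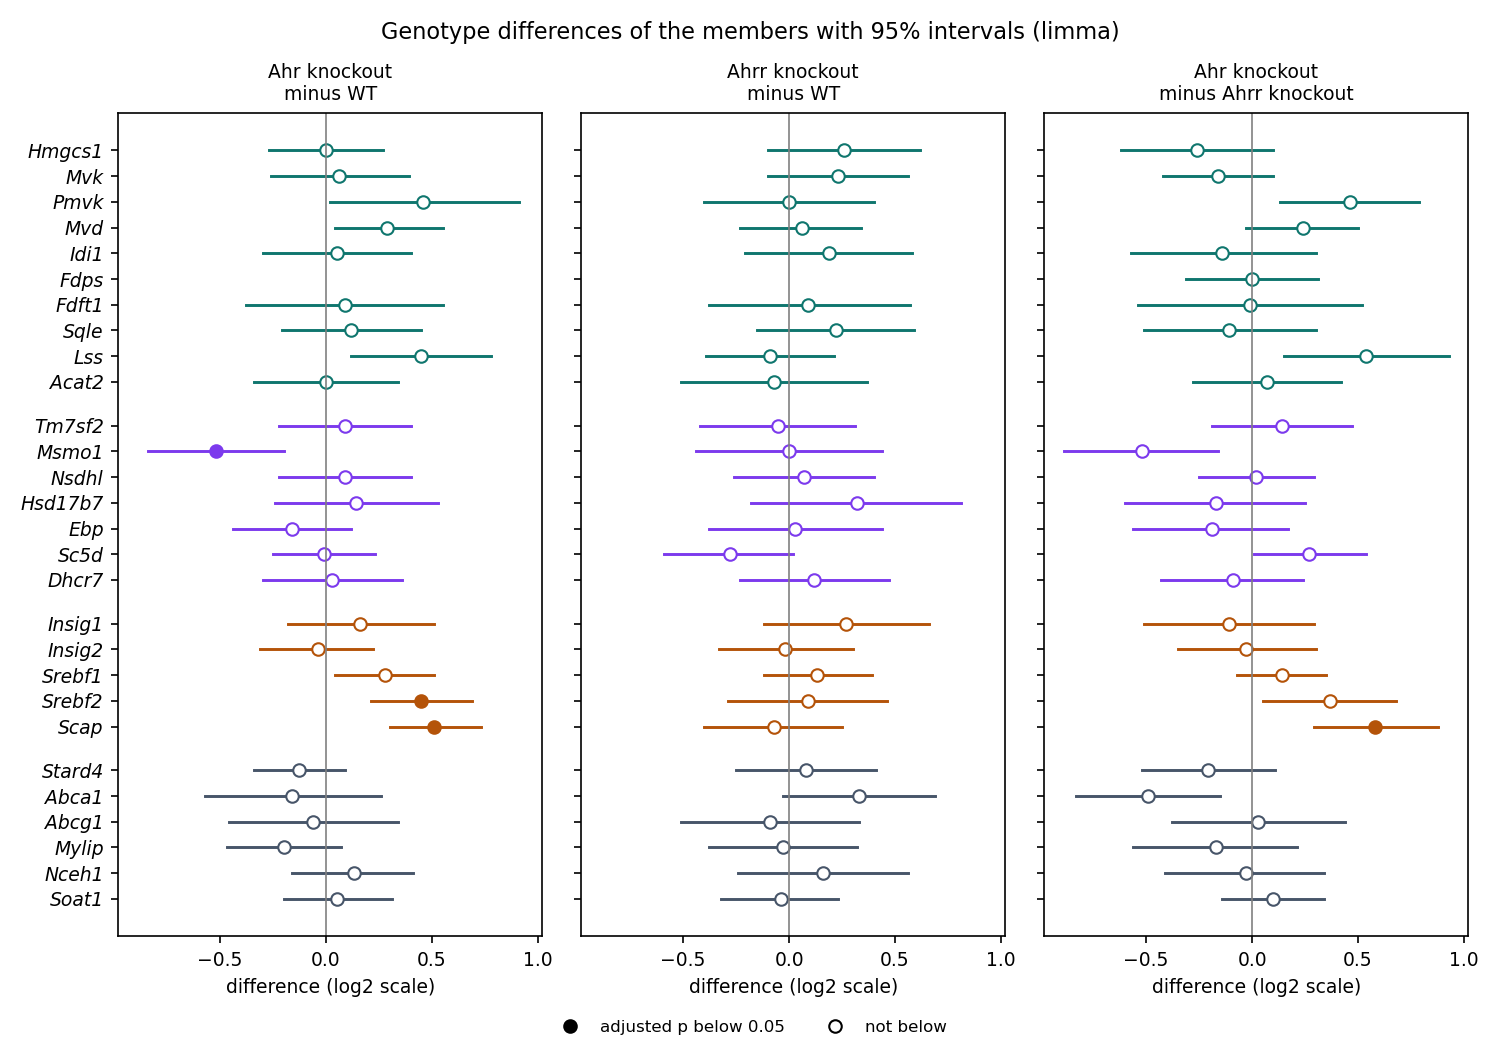
Difference of each member on the log2 scale in the genotype comparisons, with 95% intervals from limma and filled points for an adjusted p below 0.05. Filled points are Msmo1, Srebf2 and Scap for Ahr knockout minus WT, none for Ahrr knockout minus WT and Scap for Ahr knockout minus Ahrr knockout; Fdps was not tested against WT.

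Between the samples labelled Ahrr knockout and WT, no member was called among 27 tested (limma). As 0.0779% of 11546 genes were called, a count of 0 members is what the background share gives, and it does not show that the members were equal. Over all genes, 9 were called here, 4 to 25 with a sample left out and 4 to 14 in the other settings tried. At the same time 0 of 27 had an unadjusted p under 0.05, against 7.39% of all genes. No member separated the groups without overlap, against 0.459% of all genes. The median difference was 0.07 for the members and 0.01 for all genes, with a range from -0.28 to 0.33 and 18 positive to 9 negative. By role the medians were 0.09 to lanosterol, 0.03 from lanosterol to cholesterol, 0.09 for SREBP control and 0.03 for transport, efflux and esters. Among the marker lists, 2 of 4 neutrophil genes were higher (S100a8 and S100a9; median list sum 312 in WT and 1464 in Ahrr knockout) and 0 genes of the other lists were called. At an unadjusted p under 0.05 these included 4 of 9 enterocyte, 5 of 5 Paneth, 2 of 2 B and plasma, 3 of 4 fibroblast, 3 of 5 acinar, 2 of 10 macrophage and dendritic and 1 of 4 endothelial genes. Every tested enterocyte, goblet, Paneth, neutrophil, mast, B and plasma and fibroblast gene had a positive difference. Eosinophil genes had 1 positive and 4 negative differences (median -0.29), and genes of dividing cells 4 and 1. The 5 acinar genes were all negative (median list sum 774 in WT and 22.7 in Ahrr knockout). Macrophage and dendritic genes had 8 positive and 2 negative differences, and endothelial genes 3 and 1. The Paneth sum had a median of 5633 in WT and 17055 in Ahrr knockout.

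Scap lay at 8.58, 8.96 and 9.59 in Ahrr knockout, a range that enclosed WT (difference -0.07, SE 0.15, adjusted p 0.888). Srebf2 lay at 10.16, 10.67 and 11.42, also enclosing WT (difference 0.09, SE 0.18, adjusted p 0.886). For both genes the highest Ahrr knockout sample was F2 and the lowest M3. Within Ahrr knockout, F2 also had the highest eosinophil sum (38762) and the lowest goblet sum (3632), and M3 the lowest eosinophil sum (14318) and the highest goblet sum (38687). The part of these sums in the sterol values was not tested. Msmo1 lay at 9.31, 9.94 and 10.49 with a difference of 0.00 (SE 0.20, adjusted p 0.997), and Pmvk at 8.17, 8.84 and 9.37 with a difference of 0.00 (SE 0.19, adjusted p 0.997). Both overlapped WT over its whole range. Lss lay at 7.70, 7.94 and 8.41 (difference -0.09, SE 0.14, adjusted p 0.851) and Stard4 at 9.59, 10.16 and 10.39 (difference 0.08, SE 0.16, adjusted p 0.878). Sc5d had the lowest difference of the members: it lay at 9.70, 10.14 and 10.25, overlapping WT, and differed by -0.28 (SE 0.14, 95% interval -0.59 to 0.02, adjusted p 0.671).

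The 20 other members tested against WT were likewise not called in Ahrr knockout. In the chain to lanosterol, Hmgcs1 ranged from 9.15 to 10.10, Idi1 from 8.95 to 9.99, Fdft1 from 8.51 to 9.79, Sqle from 8.76 to 9.58 and Mvd from 7.27 to 7.75. Mvk ranged from 6.66 to 6.98, Acat2 from 6.27 to 7.34 and the untested Fdps from 5.77 to 6.45. Each of these ranges overlapped that of WT. In the later steps, Nsdhl ranged from 7.90 to 8.31, Hsd17b7 from 7.63 to 8.83, Ebp from 6.80 to 8.07, Dhcr7 from 7.31 to 8.07 and Tm7sf2 from 5.95 to 6.92. Among regulators and transport genes, Insig1 ranged from 8.61 to 9.69, Insig2 from 7.08 to 8.13, Srebf1 from 8.06 to 8.23, Abca1 from 7.54 to 8.09 and Abcg1 from 8.12 to 8.92. Mylip ranged from 7.31 to 8.13, Nceh1 from 7.67 to 8.62 and Soat1 from 9.37 to 9.69. These too overlapped WT.

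Set against each other, the knockouts differed in Scap, which was higher in Ahr knockout. It was the 1 member called among 28 tested, whereas 14.9% of 11474 genes were called, 6.84% higher and 8.04% lower. In this fit, the count of members called was thus under the background share. Over all genes, 1708 were called here, 818 to 2574 with a sample left out and 713 to 1990 in the other settings tried. A total of 7 of 28 had an unadjusted p under 0.05, against 32.8% of all genes, and 0 separated without overlap, against 4.61% of all genes. The median difference was -0.02 for the members and 0.00 for all genes, with 12 positive and 16 negative. The same Ahr knockout samples serve in this comparison and in that with WT, so the values are given side by side and not counted as separate evidence.

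Scap was 0.58 higher in Ahr knockout than in Ahrr knockout (SE 0.14, 95% interval 0.29 to 0.88, adjusted p 0.0152). The groups overlapped through the single Ahrr knockout sample F2, at 9.59, and 5 of 6 Ahrr knockout samples were under every Ahr knockout sample. The call held in every setting tried, with adjusted p from 0.00482 to 0.0475. Srebf2 differed by 0.37 (SE 0.15, adjusted p 0.101), Lss by 0.54 (SE 0.18, adjusted p 0.0575) and Pmvk by 0.46 (SE 0.15, adjusted p 0.0573). Of the members with a negative difference, Msmo1 was at -0.52 (SE 0.17, adjusted p 0.0529) and Abca1 at -0.49 (SE 0.16, adjusted p 0.0513). None of these 5 was called, and all had groups that overlapped. Sc5d differed by 0.27 (SE 0.12, adjusted p 0.141) and Stard4 by -0.21 (SE 0.15, adjusted p 0.357), which ran from -0.30 to -0.12 with a sample left out.

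Several of these sat near the threshold, and the count moved when single libraries were left out. Without Ahr knockout F1 there were 2 members called, Lss being added (0.67, adjusted p 0.0266), and without Ahr knockout M1 there were 2, with Pmvk (0.56, adjusted p 0.0392). Without Ahrr knockout F1 there were 2, with Abca1 (-0.51, adjusted p 0.0485). Leaving out Ahrr knockout F2 gave 4, with Lss (0.60, adjusted p 0.0384), Msmo1 (-0.56, adjusted p 0.0448) and Srebf2 (0.46, adjusted p 0.0370). Leaving out Ahrr knockout M1 gave 3, with Abca1 (-0.57, adjusted p 0.0360) and Pmvk (0.52, adjusted p 0.0490), and leaving out M2 gave 3, with Abca1 (-0.53, adjusted p 0.0498) and Msmo1 (-0.60, adjusted p 0.0337). Over all settings the adjusted p ran from 0.0266 to 0.158 for Lss, 0.0392 to 0.324 for Pmvk, 0.0337 to 0.145 for Msmo1, 0.0360 to 0.131 for Abca1 and 0.0370 to 0.278 for Srebf2.

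By role, the median difference between the knockouts was -0.01 to lanosterol (-0.26 to 0.54), -0.09 from lanosterol to cholesterol (-0.52 to 0.27), 0.14 for SREBP control (-0.11 to 0.58) and -0.10 for transport, efflux and esters (-0.49 to 0.10). The marker lists moved with this comparison. As background, 14.9% of all genes were called and 32.8% had an unadjusted p under 0.05. In Ahr knockout 4 of 5 eosinophil genes were higher (Siglecf, Il5ra, Prg2 and Alox15). Lower were 5 of 6 goblet genes (Tff3, Fcgbp, Clca1, Spink4 and Agr2), 5 of 5 Paneth genes (Lyz1, Defa24, Defa30, Mmp7 and Itln1) and 2 of 9 enterocyte genes (Epcam and Sis). So were 3 of 5 genes of dividing cells (Top2a, Ccnb1 and Birc5), 2 of 4 neutrophil genes (S100a8 and S100a9), 1 of 2 B and plasma genes (Jchain), 1 of 4 fibroblast genes (Col1a2) and 1 of 4 endothelial genes (Cdh5). At the unadjusted level these lists had 4 eosinophil, 6 goblet, 5 Paneth, 6 enterocyte, 4 dividing, 2 neutrophil, 1 B and plasma, 4 fibroblast and 2 endothelial genes. Col1a2 (mean 5.89 in Ahr knockout and 6.97 in Ahrr knockout) and Cdh5 (5.94 and 6.64) passed the filter through Ahrr knockout alone, so these calls are weak. Of 10 macrophage and dendritic genes, 1 was higher (Itgax) and 2 were lower (Cd68 and C1qb), with 8 at the unadjusted level, and 0 of 1 acinar and 0 of 1 mast gene were called, also at an unadjusted p under 0.05. The Paneth sum, led by Lyz1, was 1344, 6389 and 8174 in Ahr knockout and 8071, 17055 and 66803 in Ahrr knockout. The B and plasma sum, led by Jchain, was 67.9, 264 and 726 against 321, 3878 and 6004. Their part in the sterol differences was not tested.

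Pmvk and Srebf2 were higher in females than in males. Over all 18 samples with genotype as a covariate, 2 of 28 members were higher in females and 0 were lower. Among 11468 genes, 3.06% were called, 2.46% higher and 0.602% lower in females. In number, 351 genes were called here, 142 to 733 with a sample left out and 163 to 348 in the other settings tried. No member separated the sexes without overlap, against 0.148% of all genes. At an unadjusted p under 0.05 there were 4 of 28 members, against 18.7% of all genes. The median difference was -0.01 for the members and for all genes. The medians by role were 0.02 to lanosterol, -0.07 from lanosterol to cholesterol, 0.23 for SREBP control and -0.04 for transport, efflux and esters. Of the markers, Ltf (1 of 4 neutrophil genes) and Kit (the 1 mast gene tested) were higher in females, and the MHC-II gene H2-Ab1 (1 of 10 macrophage and dendritic genes) was lower. At the unadjusted level these lists had 2, 1 and 4 genes. Ltf had a mean of 6.56 in females and 5.72 in males, near the filter, so its call is weak. In the other lists 0 genes were called, with 3 of 9 enterocyte and 1 of 5 eosinophil genes at an unadjusted p under 0.05.

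Pmvk lay at 8.44, 9.34 and 9.98 in the 9 females (lowest, median, highest) and at 8.17, 8.42 and 9.25 in the 9 males. In Ahr knockout and in Ahrr knockout every female was above every male of the same genotype, and in WT the female F1 and the male M1 crossed over. Pmvk was 0.78 higher in females (SE 0.16, 95% interval 0.45 to 1.11, adjusted p 0.0122), and the call held in every setting tried (adjusted p 0.00135 to 0.0350). Srebf2 lay at 10.52, 11.08 and 11.42 in females and at 10.16, 10.68 and 10.86 in males. Its sexes overlapped, with WT F1 the lowest female, and the difference was 0.49 (SE 0.12, 95% interval 0.23 to 0.74, adjusted p 0.0354).

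The Srebf2 call between the sexes depended on the libraries, and the adjusted p ran from 0.0133 to 0.0786 over the settings. It was lost without WT F2 (adjusted p 0.0746), M2 (0.0637) or M3 (0.0509), and without each Ahr knockout library in turn, F1 (0.0642), F2 (0.0786), F3 (0.0581), M1 (0.0677), M2 (0.0722) or M3 (0.0648). It was also lost without Ahrr knockout F1 (0.0622), F2 (0.0705), M2 (0.0655) or M3 (0.0731), with no minimum mean (0.0688) and without both libraries with few genes at 0 (0.0619). Its difference stayed between 0.37 and 0.54. Each of these losses leaves 1 member called, Pmvk. Insig2 was not called at first, and without Ahrr knockout F3 it differed by -0.40 with an adjusted p of 0.0428, the lowest in a range up to 0.198.

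Whether genotype differences depended on sex was tested with an interaction term in limma. For Ahr knockout and WT, 0 of 27 members and 0% of genes were called, and 1 member, Abca1, had an unadjusted p under 0.05, against 4.7% of genes. For Ahrr knockout and WT, 0 of 27 members and 0% of genes were called, and 1 member, Mylip, had an unadjusted p under 0.05, against 4.71% of genes. Between the knockouts, 0 of 28 members and 0% of genes were called, and 2 members, Abca1 and Mylip, had an unadjusted p under 0.05, against 3.27% of genes. The separation of Srebf2 into high females and lower males within Ahr knockout was therefore not shown to differ from that in WT (interaction 0.38, adjusted p 0.954).

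The spread of the sterol genes within a genotype was set beside that of all genes tested, with no test of the difference. The median SD of the members was 0.24 in WT, 0.25 in Ahr knockout and 0.34 in Ahrr knockout, and that of all genes tested 0.26, 0.21 and 0.32. Pmvk had the largest SD in each genotype, 0.45, 0.70 and 0.50. The smallest belonged to Scap in WT (0.12), Mvd in Ahr knockout (0.17) and Srebf1 in Ahrr knockout (0.07).

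The number of the 17 synthesis enzymes above their genotype mean ranged from 3 to 14 between samples. Of all 11468 genes tested over 18 samples, 46.9% to 51.4% were above their genotype mean in a sample. Whether the enzymes moved together more than other sets of 17 genes was not tested. Of these enzymes, WT F1 had the highest WT value in 9 and lay above the WT mean in 13. Ahr knockout F3 lay above its genotype mean in 14 and Ahrr knockout M1 in 14, with median deviations of 0.27 and 0.19. At the other end, Ahr knockout F1 and M3 each lay below the mean in 14 (median deviations -0.22 and -0.19), as did Ahrr knockout M2 (-0.26). Not all went the same way: in Ahr knockout F1, Pmvk (0.71), Msmo1 (0.12) and Sc5d (0.12) lay above the mean. Ahr knockout M2 had 8 enzymes above and 9 below, and Ahrr knockout M3 had 9 above and 8 below. Fdft1 moved far in these samples: it was highest in WT F1 at 9.59, in Ahr knockout F3 at 9.78 and in Ahrr knockout M1 at 9.79. Insig1 peaked in the same 3 samples, at 9.43, 9.48 and 9.69, although Ahr knockout F2 was also at 9.48 to this precision. Ahr knockout F3 is a library with few genes at 0, and Ahrr knockout M1 had the highest Paneth sum, 66803. WT F1 had the lowest eosinophil sum of WT, 24865, and the highest goblet sum, 17422. The part of these in the spread was not tested.

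**Figure D5:**
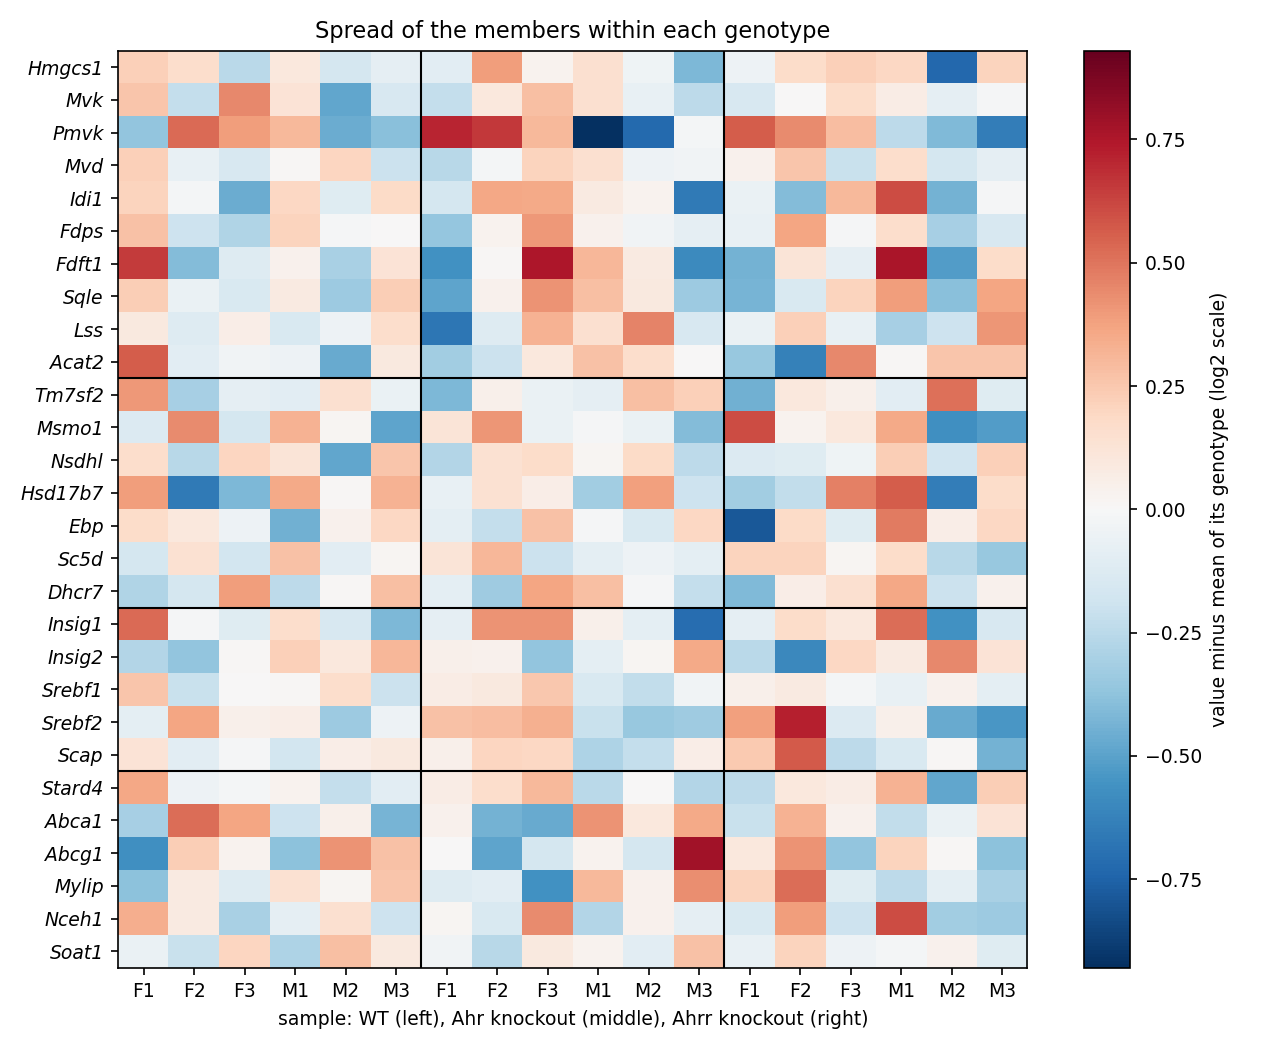
Each member's value minus the mean of its genotype on the log2 scale (color), for 28 genes in rows and 18 samples in columns, with lines between roles and genotypes. Columns of mostly red, such as WT F1, Ahr knockout F3 and Ahrr knockout M1, are samples in which most synthesis enzymes were above their mean.

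Neighbouring pathways were read from 5 further lists. Of genes of LXR, RXR and oxysterols, 3 of 15 tested were higher in Ahr knockout than in WT and 0 were lower, against 8.84% of all genes called and 5.16% called higher. At an unadjusted p under 0.05 there were 8 of 15, against 23.3% of all genes. Lpcat3, a lysophospholipid acyltransferase, rose by 0.42 (SE 0.10, adjusted p 0.0172) and Rxra, the partner receptor of LXR, by 0.38 (SE 0.11, adjusted p 0.0400). The third was Pltp, a phospholipid transfer protein and LXR target, with a difference of 1.31 (SE 0.21, adjusted p 0.000811). It passed the filter through Ahr knockout alone (mean 6.84, and 5.53 in WT) and its lowest WT sample was at a count of 0, so its call is weak and its size unsure. The median of this list was 0.14, with 10 positive and 5 negative. The LXR targets Abca1 and Abcg1 among the members were not called in the same comparison. In Ahrr knockout against WT 0 of 14 were called (2 at an unadjusted p under 0.05, against 7.39% of all genes). Between the knockouts 0 of 15 were called, and the 5 of 15 at an unadjusted p under 0.05 match the 32.8% of all genes. Gramd1a, a sterol carrier at membrane contacts, was 0.58 higher in females (SE 0.16, adjusted p 0.0465), the 1 of 15 called, against 3.06% of all genes, with 5 of 15 at an unadjusted p under 0.05, against 18.7%.

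Of the fatty acid synthesis genes that SREBP also drives, 1 of 14 tested was higher in Ahr knockout than in WT, the elongase gene Elovl5 (0.61, SE 0.16, adjusted p 0.0239), with a list median of 0.03 and 4 of 14 at an unadjusted p under 0.05. Of all genes, 8.84% were called, 5.16% higher, and 23.3% were at that unadjusted level. In Ahrr knockout against WT 0 of 15 were called, with 0 at an unadjusted p under 0.05. Between the knockouts 1 of 14 was lower in Ahr knockout, the desaturase gene Fads2 (-0.73, SE 0.21, adjusted p 0.0311), with 4 of 14 at an unadjusted p under 0.05. Of all genes 14.9% were called there, 8.04% lower, and 32.8% were at the unadjusted level. Between the sexes 0 of 15 were called (5 at an unadjusted p under 0.05). In the isoprenoid branches, which draw farnesyl units away for protein prenylation, dolichol and ubiquinone, 0 of 9 were called in every comparison. At an unadjusted p under 0.05 these were 1 for Ahr knockout and WT, 1 for Ahrr knockout and WT, 1 between the knockouts and 2 between the sexes, against 23.3%, 7.39%, 32.8% and 18.7% of all genes. Their median difference between Ahr knockout and WT was 0.06.

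Among genes of SREBP processing and sterol-linked degradation, 0 of 9 were called for Ahr knockout and WT (1 at an unadjusted p under 0.05) and 0 of 9 for Ahrr knockout and WT (0 at that level). Of all genes, 8.84% and 0.0779% were called in these comparisons, and 23.3% and 7.39% were at the unadjusted level. Erlin2 was lower in Ahr knockout than in Ahrr knockout (-0.43, SE 0.12, adjusted p 0.0261), and Erlin1, its relative in the same membrane complex, was lower in females (-0.39, SE 0.09, adjusted p 0.0245). Each was 1 of 9 called, with 2 of 9 and 4 of 9 at an unadjusted p under 0.05. Between the knockouts 14.9% of all genes were called, 8.04% lower, and 32.8% were at the unadjusted level. Mbtps1 and Mbtps2, which cut SREBP, were in this list and not called in any comparison. Of the lipoprotein and scavenger receptors, 0 of 9 were called between any genotypes, with 2 of 9 at an unadjusted p under 0.05 in each comparison. The share of all genes at that level was 23.3% for Ahr knockout and WT, 7.39% for Ahrr knockout and WT and 32.8% between the knockouts. Cd36, a scavenger receptor for oxidized lipoproteins and fatty acids, was lower in females (-0.68, SE 0.17, adjusted p 0.0309), with 3 of 9 at an unadjusted p under 0.05. Between the sexes 3.06% of all genes were called and 18.7% were at the unadjusted level.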

How the data were processed

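RNA of sorted small intestinal eosinophils was sequenced in 18 samples. According to the methods and labels, single-ended reads were aligned to GRCm38 and counted with nf-core/rnaseq (STAR 2.5.2, RSEM 1.3.0), and the authors made the deposited values, variance-stabilized expression on a log2 scale, with DESeq2 in R 4.0.3. The deposited values were used as they stand. Turning them back gave whole counts for 100% of values (tolerance 0.0001), which served for depth (3842977 to 12046933 counts per sample), normalized counts and levels per kb of exon from the GENCODE annotation. Counting error is largest in WT, the shallowest group.

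Each comparison used limma 3.58.1 in R 4.3.3 (empirical Bayes with a mean-variance trend) after removal of genes with a mean, over the samples compared, less than 1 above the table's lowest value, with Benjamini-Hochberg adjustment over all of them and a threshold of 0.05. Pairs of genotypes were fitted with sex as covariate, the sexes over 18 samples with genotype as covariate, and the interaction of genotype and sex for each pair. Tables and figures were made in Python 3.11.15 (pandas 2.3.3, numpy 2.4.6, scipy 1.17.1, matplotlib 3.10.9). RefSeq promoters were searched on both strands for exact motif matches.

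The members and lists were chosen with earlier results of these data known. All members were named. Values, difference, SE and adjusted p were given for members called between genotypes or separated without overlap and for the most abundant of each role; the others were given by their range, with their differences in a plot. Further values of Hmgcs1, Lss, Mvd, Abca1, Mylip and Insig2 were chosen after these were seen. In each other list every called gene was named where there were 5 or fewer. The alternatives, run for the members, were quantile normalization, centring of samples on their median, no filter on the mean, a filter at 3 above the lowest value, a robust or no variance trend, limma voom on the counts, log2 of the normalized count plus 1, the replicate number as a block, no sex covariate, a fit of all 18 samples together, and each sample left out in turn. Leaving out WT F3 and Ahr knockout F3 together was chosen after seeing the data.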

Additional observations from a re-analysis of the deposited data

Results flagged for a closer look

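In each genotype, the highest and the lowest of the 6 values of each member were set against the others, and 2 of 84 groups had a value far from the rest, where chance gives about 1 in 20 groups. Hmgcs1 was 9.15 in Ahrr knockout M2, whereas the other 5 Ahrr knockout samples lay between 9.83 and 10.1, a gap of 0.723 of the whole range. Ebp was 7.11 in WT M1, whereas the other 5 WT samples lay between 7.52 and 7.75, a gap of 0.632 of the range.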

How the results depend on the processing

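The count of members called was recomputed under each alternative. For Ahr knockout and WT it was 3, and 1 (Scap) with no sex covariate, 1 with all 18 samples in the fit and 1 without both WT F3 and Ahr knockout F3, the alternative chosen after seeing the data. It was 2 to 3 when each sample was left out in turn, and 3 with the replicate block. For Ahrr knockout and WT it was 0 in every alternative, the replicate block (0) and each left-out sample (0 to 0) included. Between the knockouts it was 1, and 3 with samples centred on the median, 4 with quantile normalization (3 higher, 1 lower), 2 with the replicate block, 2 with all 18 samples and 1 to 4 with a sample left out. Between the sexes it was 2, and 1 with no minimum mean, 1 without WT F3 and Ahr knockout F3, and 1 to 3 with a sample left out. The interaction called 0 members, also with all 18 samples in the fit. Fewer samples or more genes tested enter some of these; otherwise the cause was not tested.

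The labels do not state that the replicate number pairs samples across genotypes, so the replicate block is shown only as an alternative. With the mean of each genotype and sex subtracted, correlations between samples of the same number ran from -0.59 to 0.47. Samples of different number were not compared, so these values cannot decide whether the numbers pair. Msmo1 with the replicate block had an adjusted p of 0.00783 for Ahr knockout and WT.

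Differences near 0 changed sign. For Ahr knockout minus WT, Sc5d was 0.01 with samples centred, and Hmgcs1 was -0.01 with quantile normalization, -0.01 with limma voom and -0.05 without WT F3 and Ahr knockout F3. For Ahrr knockout minus WT, Pmvk was -0.04 with samples centred and -0.03 with quantile normalization, and Msmo1 was -0.04 with samples centred, 0.00 with limma voom and -0.07 without WT F3. With a sample left out, the ranges were -0.08 to 0.05 for Sc5d and -0.07 to 0.08 for Hmgcs1 in Ahr knockout minus WT, and in Ahrr knockout minus WT -0.15 to 0.14 for Pmvk, -0.11 to 0.11 for Msmo1, -0.03 to 0.16 for Srebf2, -0.18 to 0.00 for Scap and 0.00 to 0.18 for Stard4. Of 85 member differences not given above, 36 changed sign in at least 1 alternative, with main differences of at most 0.16 in size, and 0 of those sign changes were called. The cause was not tested.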
